A study of Rattus norvegicus with 46 samples.

Results

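The unloaded hind legs of rats paralysed for 9-14d were compared with those of rats paralysed for 5-8d. Members were chosen by title alone, as arrays of unloaded legs in those windows, which gave 10 of the 46 arrays of the series, 6 at 9-14d and 4 at 5-8d, with 1 array per rat. The study measured RNA of the gastrocnemius, a calf muscle, in female Sprague-Dawley rats of unstated age held under intensive care conditions. All groups shared isoflurane anaesthesia, mechanical ventilation and a non-depolarizing neuromuscular block by alpha-cobrotoxin, a snake toxin that occupies the nicotinic acetylcholine receptor of the muscle endplate. In each rat 1 leg was moved passively and the other was left without loading. The other unloaded group, 13 rats at 6h-4d, served as the reference level. These rats were already paralysed, so a course from the onset of paralysis is not measured. Loaded legs at 9-14d (6 arrays) and 5-8d (4 arrays) came from the same rats. No untreated rats were measured, and a window pools rats of different durations, so a value describes a window and not a day.

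A muscle fibre that receives no nerve signal spreads acetylcholine receptors over its membrane, loses contractile protein and lowers its glycolytic and mitochondrial transcripts, and muscle activity normally holds the receptor genes down. Matrix genes of muscle are made mostly by fibroblasts, antigen presentation genes by macrophages, dendritic cells and other immune cells, and fusion genes by myogenic cells. The comparison asks which changes of the first days continued, held their level or turned back during the second week.

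Values are log2 levels of the authors' normalised signal, so a difference of 1 is a doubling. The test was limma's moderated test over 9009 genes on the 23 unloaded arrays, and a gene was called at an adjusted p under 0.05. In whole muscle, fewer cells of a type and less RNA per cell cannot be told apart.

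Few genes passed the threshold between the later windows in the model used here. Of 9009 genes, 21 (0.233%) were called between 9-14d and 5-8d, 17 higher (0.189%) and 4 lower (0.0444%) at 9-14d, with adjusted p between 0.0198 and 0.0453. At an unadjusted p under 0.05 there were 1386 genes, 876 higher and 510 lower. The count and its balance depended on the variance model. Array quality weights called 2261 genes, 1062 higher and 1199 lower, and all 46 arrays with the rat as a random block called 200, 155 higher and 45 lower. The step before it, 5-8d against 6h-4d, called 2184 genes higher (24.2%) and 1143 lower (12.7%) in a comparison that shares the 5-8d arrays. Against 6h-4d, the 9-14d legs had 2611 genes higher (29%) and 1517 lower (16.8%). The median size of a difference over all genes was 0.16 for the later step and 0.28 for the earlier step, and 2.3% and 5.89% of genes differed at least 2-fold. The steps span 6 against 4 and 4 against 13 rats, so counts of calls depend on group size as well as on change.

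The 21 calls rest on few rats. Without 5-8d rat 41 no gene was called by limma (1221 at an unadjusted p under 0.05), without 5-8d rat 55 or 9-14d rat 49 a single gene was, and without 5-8d rat 53 there were 4. Leaving out 9-14d rat 51 gave 14 calls. Leaving out others raised the count, to 539 without 5-8d rat 43, 189 without 9-14d rat 45, 69 without 57, 67 without 47 and 34 without 59. A fit on the 10 arrays alone called none (1052 unadjusted). The labels carry date codes, and D and E each hold both windows. All 21 genes had the same direction within code D (4 against 2 rats) and within code E (2 against 2 rats), and all 21 had the same direction in the loaded legs of the same rats. The genes were picked by their difference on these same unloaded arrays, and the legs of a rat deviated together. The shared direction is therefore no independent support, and its share over all genes is not given. A fit with the code as a block called none (1261 unadjusted).

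**Figure D1:**
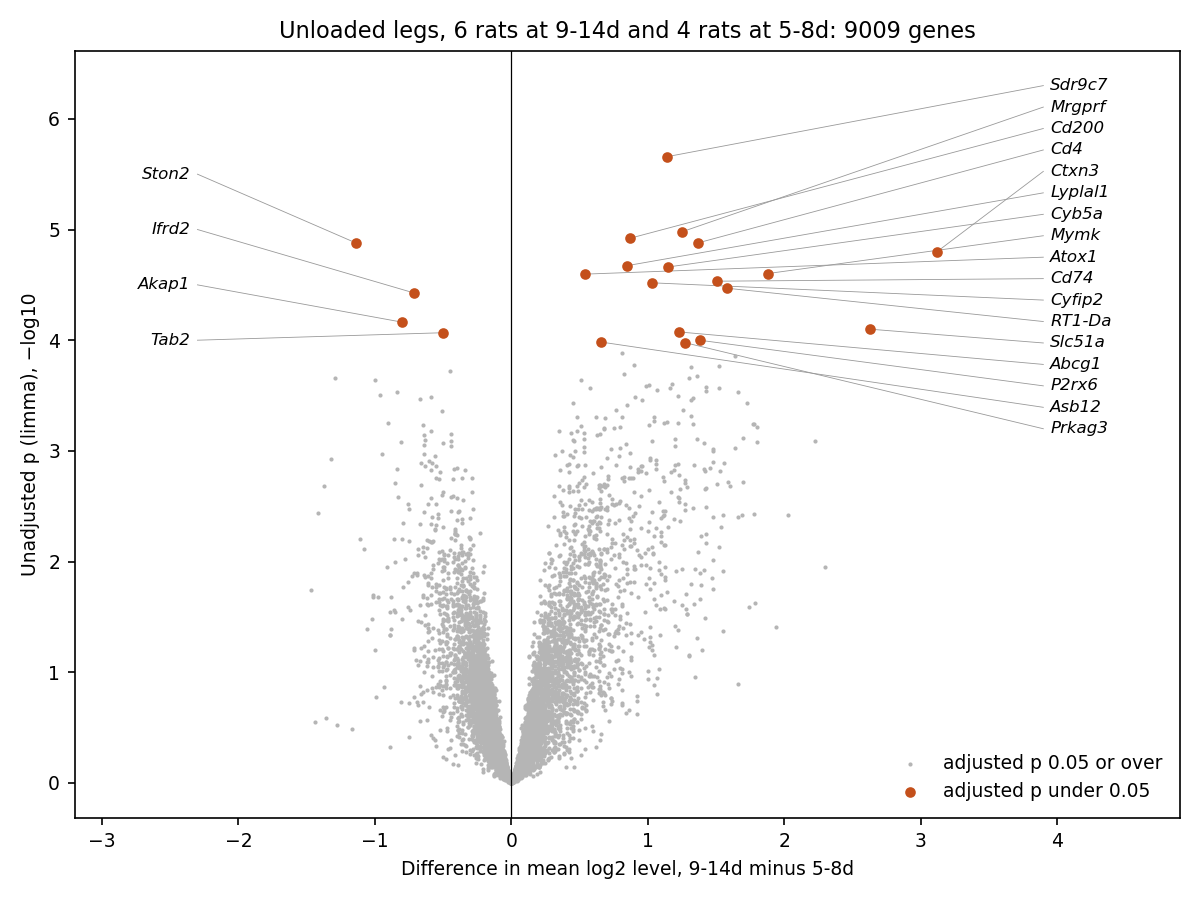
Each of 9009 genes is a point, with the difference in mean log2 level (9-14d minus 5-8d, unloaded legs) on the horizontal axis and the unadjusted limma p as −log10 on the vertical axis. The 21 called genes are named, 17 to the right of 0 and 4 to the left.

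Each gene was put in a class by both steps. Of the 3327 genes called in the earlier step, 4 continued in the same direction, 7 returned, and 1945 (58.5%) held, meaning that the 95% interval of the later difference lay within 1.5-fold either way. For 1371 (41.2%) the interval was too wide to place the gene. A further 10 genes were called in the later step and not in the earlier one. Among the 506 genes whose earlier change was called and at least 2-fold, 69 held and 433 could not be placed. Most held genes had thus changed less than 2-fold in the earlier step. A gene whose earlier change was under 1.5-fold can hold and still have returned. For such genes the class shows a small later step and not a plateau.

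The 4 genes that continued were all higher at each step. The largest was Slc51a, which encodes a subunit of a transporter that exports bile acids and steroids. Its level at 9-14d was 8.71 at the lowest, 10.09 at the median and 11.05 at the highest, against 6.00, 10.15, 5.91 and 7.70 in the 5-8d rats 41, 43, 53 and 55, and 5.07 to 6.19 at 6h-4d. Rat 43 lay inside the 9-14d range and the other 5-8d rats lay below it. The difference between 6 and 4 rats was 2.63 ± 0.55 (limma adjusted p = 0.0428). Here and below ± is the SE from the fit on all 23 unloaded arrays, unless SD is stated. The 6h-4d rats thus enter it, and the Slc51a SD was 0.33 at 6h-4d, 1.98 at 5-8d and 0.88 at 9-14d. Rats 41 and 53 lay below the lowest array median of 6.07, so no fold is given.

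Mymk, the membrane protein myomaker that drives fusion of myogenic cells, spanned 7.91 to 10.15 at 9-14d with a median of 8.67, against 6.86, 7.47, 6.04 and 7.37 at 5-8d in the same rat order. Every 9-14d rat was above every 5-8d rat. The difference was 1.88 ± 0.36 (adjusted p = 0.0228), and the earlier step was 0.98 (adjusted p = 0.0191). Rat 53 and the 6h-4d mean of 5.96 lay below the lowest array median of 6.07. Within codes D and E the later difference was 1.19 and 3.03. In the loaded legs of the same rats Mymk differed by 2.53 and Slc51a by 3.17.

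Cyb5a, cytochrome b5, an electron carrier of the endoplasmic reticulum, had levels of 10.58 to 11.90 at 9-14d, against 9.21, 10.36, 9.99 and 9.76 at 5-8d. Lyplal1, a lysophospholipase-like hydrolase, had 8.29 to 8.92 at 9-14d, against 7.51, 7.84, 7.77 and 8.02 at 5-8d. Both groups were apart for each gene, with differences of 1.15 ± 0.22 and 0.85 ± 0.16.

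**Figure D2:**
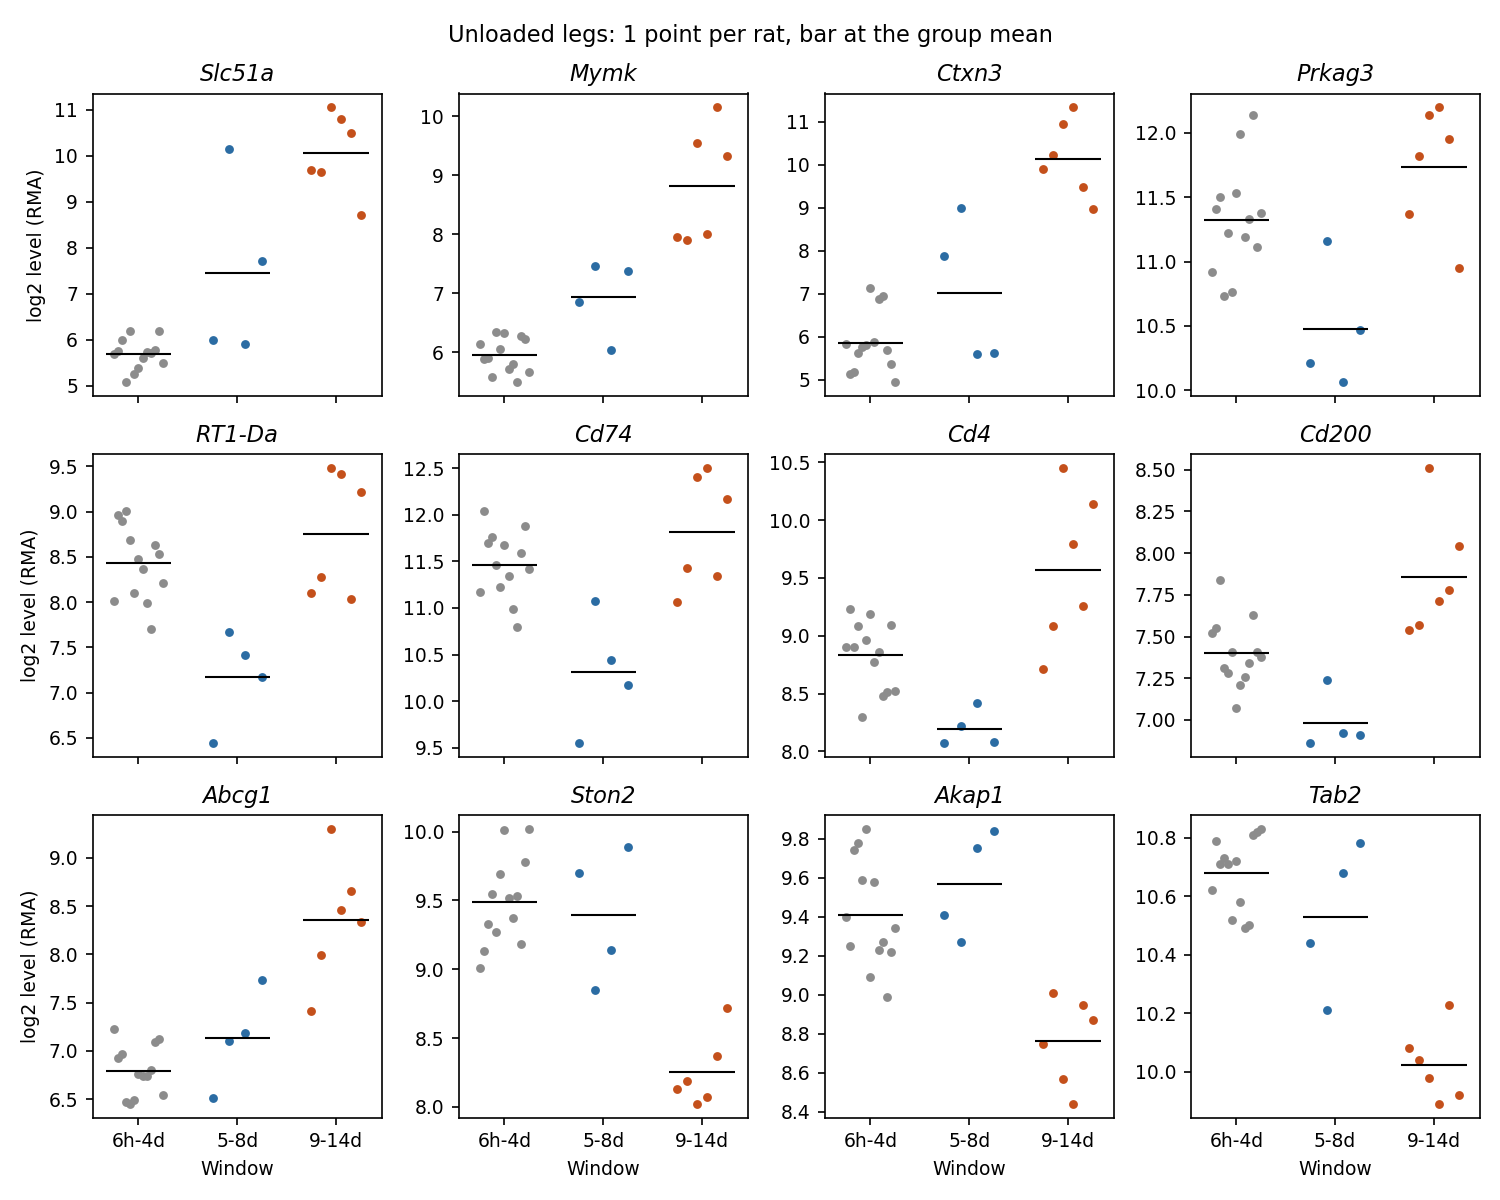
Log2 level of 12 called genes in unloaded legs, 1 point per rat (13 at 6h-4d, 4 at 5-8d, 6 at 9-14d), with a bar at each mean. Slc51a and Mymk stand higher in each window, RT1-Da, Cd74, Cd4, Cd200 and Prkag3 are low at 5-8d and higher at 9-14d, and Ston2, Akap1 and Tab2 are lower at 9-14d.

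All 7 genes that returned were lower at 5-8d than at 6h-4d and higher again at 9-14d, and 4 of them act in immune recognition. RT1-Da encodes the alpha chain of a rat major histocompatibility class II molecule, which displays peptides to helper T cells, and Cd74 is the invariant chain that occupies the class II groove during assembly. Cd4 is the co-receptor of helper T cells and is carried by rat macrophages as well. Cd200 is a membrane protein that binds an inhibitory receptor on myeloid cells.

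The upstream sequences of the 3 class II chain genes that hold the letters of the Y box are shown because these genes, in the antigen presentation list, gave differences over 1 in the later step. The Y box is an element of class II promoters that nuclear factor Y binds. Each line gives 120 bases before the RefSeq start of the gene on rat build GRCr8, 5′ to 3′ on the gene's own strand, with TGATTGG in capitals. RT1-Da lies at chr20:4515295-4515414 on the plus strand, RT1-Ba at chr20:4576937-4577056 on the plus strand and RT1-Bb at chr20:4604119-4604238 on the minus strand.
RT1-Da: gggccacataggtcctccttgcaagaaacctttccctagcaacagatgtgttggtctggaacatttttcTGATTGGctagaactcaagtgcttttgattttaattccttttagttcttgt
RT1-Ba: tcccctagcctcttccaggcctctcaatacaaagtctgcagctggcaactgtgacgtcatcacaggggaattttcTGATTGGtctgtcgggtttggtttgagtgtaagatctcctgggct
RT1-Bb: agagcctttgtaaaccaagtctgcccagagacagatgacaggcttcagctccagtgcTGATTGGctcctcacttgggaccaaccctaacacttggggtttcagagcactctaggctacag
The letters begin 51, 45 and 63 bases before the start. Read on either strand, they occur in 7.06% of 33469 rat promoter windows of 300 bases, and a match is a description of the letters and not a site. The same letters were not found in the window of Cd74, which says nothing about the factor there. Class II genes form a family of related sequences, and cross-hybridisation between them was not tested.

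RT1-Da ran between 8.03 and 9.48 at 9-14d, with a median of 8.75, against 6.44, 7.67, 7.42 and 7.17 in the 5-8d rats 41, 43, 53 and 55. All 9-14d rats were above all 5-8d rats, as held for 138 of 9009 genes (1.53%), and 70 genes (0.777%) were below in the same way. The difference was 1.58 ± 0.31 (adjusted p = 0.0235), 2.99-fold, after an earlier step of -1.25 (adjusted p = 0.00119). Against 6h-4d the 9-14d level differed by 0.33 (adjusted p = 0.266).

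Cd74 ran between 11.06 and 12.50 at 9-14d, against 9.55, 11.08, 10.44 and 10.17 at 5-8d, where rat 43 reached the lowest 9-14d rat. Its later difference was 1.51 ± 0.29 (adjusted p = 0.0228), its earlier step -1.16, and its 9-14d level against 6h-4d 0.35 (adjusted p = 0.203). RT1-Ba, a class II alpha chain, showed a like course below the threshold. It ran between 7.20 and 8.90 at 9-14d, against 5.89, 7.17, 6.89 and 6.89 at 5-8d. Rat 41 lay below the lowest array median of 6.07. The RT1-Ba groups were barely apart, at 7.20 against 7.17, and the difference was 1.22 ± 0.31 (adjusted p = 0.071). RT1-Bb, its beta chain, was spread from 6.43 to 10.49 at 9-14d, against 6.35 to 7.91 at 5-8d, and its difference was 1.08 ± 0.62 (adjusted p = 0.413). RT1-Bb was not among the returning genes, with an earlier step of 0.15 (adjusted p = 0.854), and its 9-14d level was above 6h-4d by 1.23 (adjusted p = 0.037).

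Cd4 lay between 8.71 and 10.45 at 9-14d, against 8.07, 8.22, 8.42 and 8.08 at 5-8d, and the groups were apart. Its difference was 1.37 ± 0.25 (adjusted p = 0.0228), with 1.36 in code D and 1.45 in code E. Cd200 lay between 7.54 and 8.51 at 9-14d, against 6.86, 7.24, 6.92 and 6.91 at 5-8d, a difference of 0.87 ± 0.16. Against 6h-4d the 9-14d levels of Cd4 and Cd200 were higher by 0.74 (adjusted p = 0.00325) and 0.46 (adjusted p = 0.0041).

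The other 3 returning genes were Prkag3, P2rx6 and Asb12. Prkag3, a regulatory subunit of AMP-activated protein kinase typical of fast glycolytic muscle, lay between 10.95 and 12.20 at 9-14d, against 10.21, 11.16, 10.06 and 10.47 at 5-8d. Rat 43 was above the lowest 9-14d rat, and the difference was 1.27 ± 0.27 (adjusted p = 0.0453) after an earlier step of -0.85. P2rx6, a subunit of ATP-gated ion channels, lay between 6.53 and 8.88 at 9-14d, against 6.27, 6.74, 6.00 and 6.51 at 5-8d, with a difference of 1.38 ± 0.29. Rat 53 lay below the lowest array median of 6.07, and rat 43 was above the lowest 9-14d rat. Asb12, an ankyrin repeat protein with a SOCS box, was named after its values were seen, and its difference was 0.66 (adjusted p = 0.0453). None of these 3 was called between 9-14d and 6h-4d, with differences of 0.42, -0.41 and 0.22.

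The 10 genes called only in the later step were all called against 6h-4d as well. Being called in 1 step and not in the other does not show that the steps differed, and that difference was not tested. Ctxn3, a small membrane protein of the cortexin family, had the largest difference of all genes. Its level lay between 8.98 and 11.34 at 9-14d, with a median of 10.06, against 7.88, 9.00, 5.60 and 5.63 in the 5-8d rats 41, 43, 53 and 55, and 4.94 to 7.14 at 6h-4d. The 5-8d rats were split, with rats 41 and 43 of code D high and rats 53 and 55 of code E near the early level. The difference was 3.12 ± 0.58 (adjusted p = 0.0228), and was 2.17 in code D and 3.62 in code E. Rats 53 and 55 lay below the lowest array median of 6.07, so no fold is given. The earlier step of 1.16 had an adjusted p of 0.0777.

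Sdr9c7, a short-chain dehydrogenase, held its call under the omission of any rat except 41. It lay between 6.71 and 7.88 at 9-14d, against 5.68, 5.81, 6.23 and 6.69 at 5-8d, and the difference was 1.14 ± 0.18 (adjusted p = 0.0198). Rats 41 and 43 and the 6h-4d mean of 5.89 lay below the lowest array median of 6.07. Mrgprf, an orphan G protein-coupled receptor, lay between 7.73 and 8.87 at 9-14d, against 7.29, 7.97, 6.72 and 6.77 at 5-8d. Rat 43 was above the lowest 9-14d rat, and the difference was 1.25 ± 0.22. Abcg1, which exports cholesterol, lay between 7.41 and 9.30 at 9-14d, against 6.51, 7.10, 7.19 and 7.73 at 5-8d. Its difference was 1.23 ± 0.26 (adjusted p = 0.0428), and rats 49 and 45 marked the highest and lowest 9-14d levels. Cyfip2, of the actin-regulating WAVE complex, differed by 1.03, but its 5-8d mean was below the array median of 6.07, so no fold is given. Atox1, a copper chaperone named after its values were seen, differed by 0.54.

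Of the 4 genes that were lower at 9-14d, Ston2, stonin 2, is an adaptor of endocytosis. Its level was 8.02 to 8.72 at 9-14d, with a median of 8.16, against 9.70, 8.85, 9.14 and 9.89 at 5-8d and 9.01 to 10.02 at 6h-4d. Every 9-14d rat was below every rat of both other windows, with the 5-8d rat 43 nearest. The difference was -1.14 ± 0.21 (adjusted p = 0.0228), 2.21-fold lower.

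Akap1, which anchors protein kinase A to the mitochondrial outer membrane, lay between 8.44 and 9.01 at 9-14d, against 9.41, 9.27, 9.75 and 9.84 at 5-8d. The groups were apart, and the difference was -0.80 ± 0.17 (adjusted p = 0.0412). Tab2, an adaptor of the TAK1 kinase, lay between 9.89 and 10.23 at 9-14d, against 10.44, 10.21, 10.68 and 10.78 at 5-8d, a difference of -0.50 ± 0.11. Ifrd2, an interferon-related regulator found on ribosomes, had levels of 9.85 to 10.36 at 9-14d and 10.15 to 11.16 at 5-8d, a difference of -0.71 ± 0.14 (adjusted p = 0.0241).

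Genes were also described by lists of shared function, and the median over all 9009 genes was -0.01 in the later step and 0.059 in the earlier step. Both steps share the 5-8d arrays, so a high or low 5-8d group enters both with opposite signs. Only 0.233% of all genes were called in the later step, so a list without a call is no result about its members. The antigen presentation and interferon list had 15 measured members. RT1-Da and Cd74 rose, none fell and 13 were not called, and the differences of all 15 were positive, with a median of 1.08. Its earlier step was 0.27 at the median, with 1 called higher and 3 lower. Psmb9, a subunit of the immunoproteasome, differed by 1.60 (adjusted p = 0.0904). B2m, the light chain of class I molecules, was called in the earlier step (0.79) and held, with a later difference of 0.29. Without 9-14d rat 49 the median of the list was 0.69, and it was 1.26 in code D and 0.34 in code E.

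Of the 15 macrophage markers none was called, and the differences of all 15 were positive, from 0.74 to 1.80 with a median of 1.13, after an earlier median of -0.53. Lyz2, lysozyme, lay between 9.58 and 12.93 at 9-14d, against 9.73, 10.54, 9.51 and 8.50 at 5-8d, and its difference was 1.80 ± 0.46 (adjusted p = 0.071). Csf1r, the receptor that macrophages need to survive, lay between 8.53 and 10.53 at 9-14d and between 7.93 and 8.58 at 5-8d, a difference of 1.30 ± 0.30 (adjusted p = 0.0607). Rats 45 and 47 at 9-14d fell within the 5-8d range for Lyz2, and the lowest 9-14d rat did so for Csf1r.

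The mean level over the macrophage markers spanned 7.69 to 9.95 over the 9-14d rats and 6.76 to 8.04 over the 5-8d rats. Rat 49 was highest and rat 45 lowest at 9-14d, and the groups overlapped. The median difference was 0.94 without rat 49. The part of these cells in the class II and Cd4 values was not tested. Of the 12 T and B cell markers listed 3 were measured. Cd4 rose, Ptprc, the leukocyte antigen CD45, differed by 1.48 (adjusted p = 0.0787) from a 5-8d mean below the array median, and Cd79b, of the B cell receptor, by -0.10. The 5 measured neutrophil and mast cell markers differed by a median of 0.52, with none called.

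**Figure D3:**
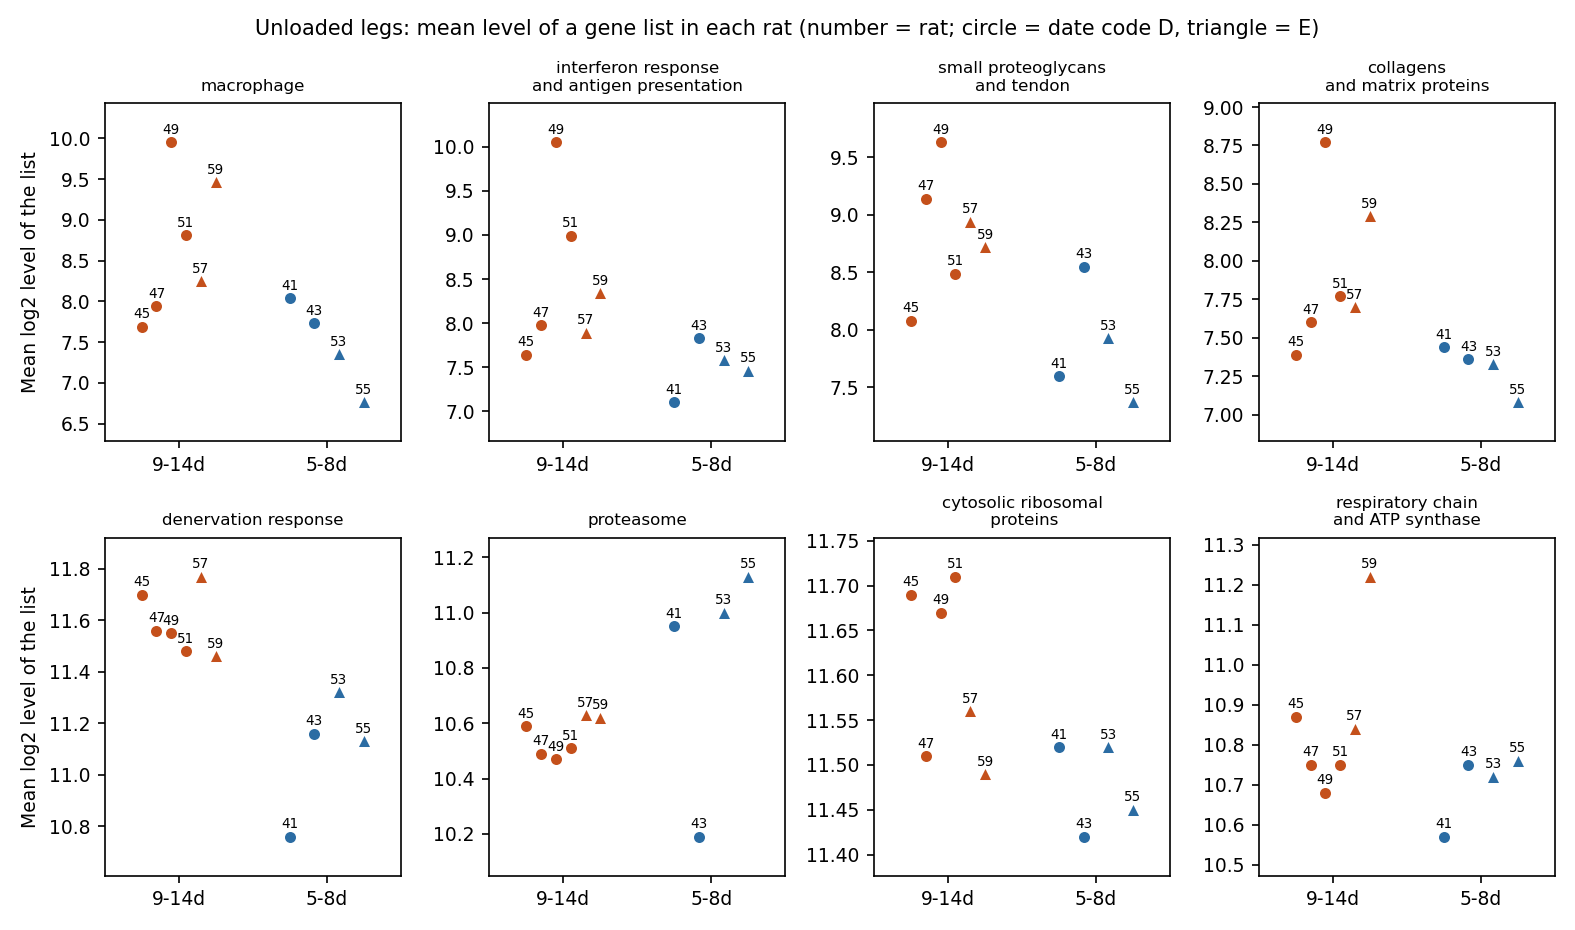
Mean log2 level of 8 gene lists in each unloaded leg, 9-14d left and 5-8d right, with rats numbered and date codes as circles (D) and triangles (E). Rat 49 is the highest for macrophage, interferon, proteoglycan and collagen lists, rat 41 is lowest for the denervation list and rat 43 for the proteasome.

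Most matrix genes fell in the earlier step, and like nearly all genes they had no call in the later step. The small proteoglycan and tendon list had 13 measured members, and 11 were called lower and 1 higher between 5-8d and 6h-4d, at a median of -1.31. In the later step none was called, all 13 differences were positive and the median was 0.99. Ogn, osteoglycin, lay between 10.99 and 11.42 at 9-14d, against 9.17, 10.63, 10.85 and 9.86 at 5-8d. The groups were apart and the difference was 1.01 ± 0.23 (adjusted p = 0.0607), and its 9-14d level was within 0.085 of the 6h-4d mean. Cilp, a cartilage matrix protein, was the other member without overlap, with a difference of 1.78 (adjusted p = 0.071). Bgn, biglycan, differed by 1.42 (adjusted p = 0.0835).

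Of 16 collagens and matrix proteins, 11 were called lower in the earlier step (median -1.12), and none was called in the later step, where 14 differences were positive (median 0.62). Col1a1, the alpha 1 chain of type I collagen, lay between 7.81 and 10.49 at 9-14d with a median of 8.52, against 7.80, 8.00, 7.77 and 7.28 at 5-8d and a median of 10.68 at 6h-4d. All but the lowest 9-14d rat stood above the 5-8d rats, all stood below the 6h-4d median, and the difference was 1.05 ± 0.67 (adjusted p = 0.469). Fn1, fibronectin, differed by 1.28 (adjusted p = 0.249) and Col3a1 by 0.65 (adjusted p = 0.39). Rat 49 was the highest for this list too, and without it the median was 0.42.

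Among 13 matrix proteases and inhibitors none was called, at a median of 0.30. Timp2, an inhibitor of matrix metalloproteinases, differed by 1.07 ± 0.25 (adjusted p = 0.0607) and Timp1 by 1.55 ± 0.72 (adjusted p = 0.301). The fibroblast markers, 9 of 12 measured, were all positive (median 0.37), and the 8 endothelial markers had a median of -0.04. In 16 genes of the growth factor and myostatin axis none was called. Igf1, the growth factor of muscle repair, lay between 8.53 and 9.94 at 9-14d, against 8.49, 8.74, 7.97 and 7.74 at 5-8d (difference 0.88, adjusted p = 0.0878). Fst, follistatin, which binds myostatin, was higher in every 9-14d rat, 7.79 to 9.66 against 6.90 to 7.64 at 5-8d (difference 1.20, adjusted p = 0.0835). Mstn, myostatin, differed by 0.60 (adjusted p = 0.477) from a 5-8d mean below the array median.

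Acetylcholine receptor and denervation genes, like nearly all genes, had no call in the later step. The intervals of most were too wide to place them, and these intervals rest on a variance pooled over the 3 windows, 6h-4d included. Of 11 denervation genes 9 were called higher in the earlier step (median 2.59) and none in the later step (median 0.49). Chrna1, the alpha subunit of the receptor that the toxin blocks, lay between 12.81 and 13.54 at 9-14d, against 10.30, 13.42, 13.12 and 12.61 at 5-8d and 6.42 to 9.75 at 6h-4d. Rat 41 lay far below the other 5-8d rats, of which 43 and 53 fell within the 9-14d range and 55 just under it, and the difference was 0.81 ± 0.54 (adjusted p = 0.489).

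Chrnd, the delta subunit, differed by 0.80 and Chrng, the gamma subunit of the fetal receptor, by 1.05 (adjusted p = 0.204). Chrnb1, the beta subunit, held, with an earlier step of 0.99 and a later difference of -0.036. Of the 12 receptor and synapse genes none was called in the later step, against 7 higher in the earlier step. Sln, sarcolipin, an inhibitor of the calcium pump, differed by 0.69, Runx1, a transcription factor of denervated muscle, by 0.41 and Ncam1, a cell adhesion molecule, by 0.49. Myog and Ankrd1, both at least 2-fold up in the earlier step, differed by 0.036 ± 0.54 and -0.0063 ± 0.80. The Myog SD was 0.26 at 9-14d, 0.33 at 5-8d and 1.13 at 6h-4d, and the Runx1 SD was 0.23, 0.30 and 0.92. For these genes the 6h-4d rats widened the interval. For Chrna1 the SD was largest at 5-8d (1.42, against 0.28 at 9-14d and 0.89 at 6h-4d). Dclk1, a microtubule-associated kinase, had the largest difference of the list, 1.54 (adjusted p = 0.125). The mean level over the list was 11.46 to 11.77 in the 9-14d rats and 10.76 to 11.32 in the 5-8d rats, so these means did not overlap. Without rat 41 the median difference of the list was 0.35.

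The 9 measured myogenic factors had 1 call, Mymk, and a median of 0.35. Myf5, a transcription factor of myogenic cells, was called higher in the earlier step (1.58) and differed by 0.63 (adjusted p = 0.175) in the later step. Cdh15, M-cadherin of satellite cells, differed by -0.84 ± 0.20 (adjusted p = 0.0607). Myh3, embryonic myosin, differed by 1.03 (adjusted p = 0.354). The 8 measured satellite cell markers had a median of 0.14 with none called.

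**Figure D4:**
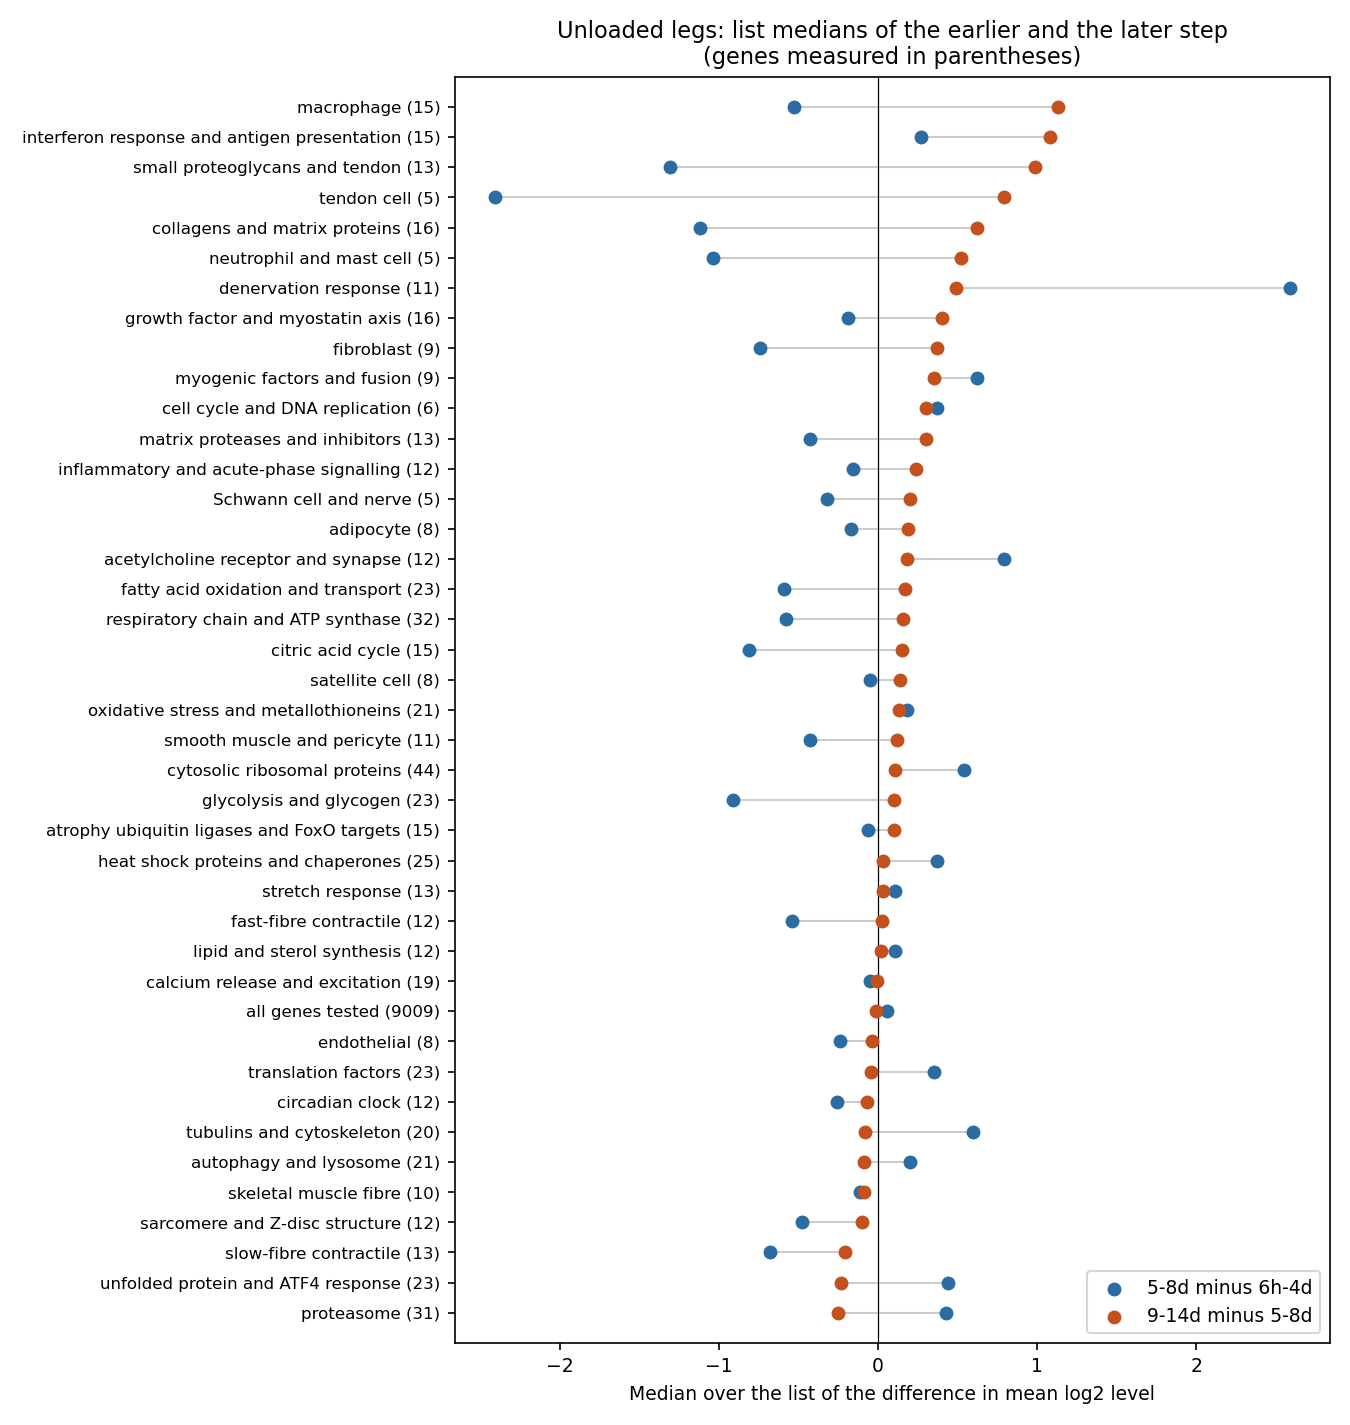
Median difference in log2 level over each list with 5 or more measured genes, for 5-8d minus 6h-4d and 9-14d minus 5-8d, which share the 5-8d arrays. The macrophage (1.13), antigen presentation (1.08) and proteoglycan (0.99) lists are highest in the later step, and the proteasome (-0.25) is lowest.

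Most ribosomal genes rose in the earlier step and had a small later step. Of 44 cytosolic ribosomal proteins 40 were called higher in the earlier step (median 0.54), 39 of them held, and none was called in the later step (median 0.11). Rpl3, a protein of the large subunit, lay between 11.26 and 11.90 at 9-14d, against 11.92, 11.31, 11.92 and 11.38 at 5-8d and 9.29 to 10.17 at 6h-4d. The later windows covered nearly the same range and both were above every 6h-4d rat, and the later difference was 0.0042 (95% interval -0.38 to 0.39) after 2.02. Rps12, of the small subunit, had an earlier step of 1.30 and a later difference of -0.0052. Among 23 translation factors 12 were called higher in the earlier step and 10 of the list held.

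Rpl3 headed the held genes by the size of the earlier step. The next were Mvp, the major vault protein (1.59), Ece1, which processes endothelin (-1.59), St3gal5, a sialyltransferase (1.49), Kcnq5, a potassium channel (1.47), Akap6, an anchor of protein kinase A at the nuclear envelope (1.42), Rangap1, of nuclear transport (1.39), and Il6r, the interleukin 6 receptor (-1.38). Their later differences lay between -0.22 for Akap6 and 0.05 for Kcnq5. Ece1 lay between 8.28 and 8.85 at 9-14d and between 8.41 and 8.80 at 5-8d, against 9.60 to 10.85 at 6h-4d, so both later windows were below every 6h-4d rat.

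Proteasome and endoplasmic reticulum genes had mostly negative differences and, like nearly all genes, no call in the later step. Of 31 proteasome subunits 9 were called higher and 1 lower in the earlier step (median 0.43), and none was called in the later step, where 30 differences were negative and the median was -0.25. Psma7, a subunit of the core particle, lay between 9.03 and 9.34 at 9-14d, against 9.93, 8.69, 10.06 and 10.29 at 5-8d. Rat 43 was the lowest of all and the other 5-8d rats were above the 9-14d range, and the difference was -0.57 ± 0.30 (adjusted p = 0.376). By date code the list median was -0.051 in D and -0.43 in E.

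The unfolded protein and ATF4 list had 23 members, of which 12 were called higher in the earlier step and none in the later step (median -0.23). Atf4, the transcription factor of amino acid and translation stress, lay between 8.64 and 8.96 at 9-14d, against 9.42, 8.90, 10.18 and 10.55 at 5-8d. Rat 43 fell within the 9-14d range, and the difference was -1.0 ± 0.23 (adjusted p = 0.0607). Atf4 was not among the genes that rose before, with an earlier step of -0.26 (adjusted p = 0.335). Its 9-14d level differed from 6h-4d by -1.26 (adjusted p = 5.55e-06). Hspa5, the main chaperone of the reticulum, differed by -0.41 (adjusted p = 0.378). The atrophy ligases Fbxo32 and Trim63, which mark proteins for degradation in wasting muscle, differed by -0.28 (adjusted p = 0.469) and -0.67 (adjusted p = 0.471), and none of 15 members of their list was called (median 0.10).

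Energy genes that fell in the earlier step had no call in the later step, in which 0.233% of all genes were called. Holding was also the commonest class over all genes called in the earlier step. Of 32 respiratory chain and ATP synthase genes 22 were called lower in the earlier step (median -0.58), 14 held, and none was called in the later step (median 0.16, 26 positive). Of 15 citric acid cycle genes 14 were called lower in the earlier step (median -0.81) and 8 held, with a later median of 0.15. Idh2, mitochondrial isocitrate dehydrogenase, had the largest later difference there, 0.95 (adjusted p = 0.161). Glycolysis and glycogen genes were called lower for 17 of 23 in the earlier step (median -0.91), and 4 held, with a later median of 0.10. Pfkfb1, a regulator of glycolysis, had an earlier step of -3.29 and a later difference of 0.43 ± 0.50 (adjusted p = 0.713). Slc16a3, which exports lactate, had -2.51 and -0.67 ± 0.60 (adjusted p = 0.618). Ppargc1a, a regulator of mitochondrial genes, differed by 0.35.

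Contractile genes, like nearly all genes, showed no call in the later step. The 12 fast-fibre genes had a median of 0.026, with the fast myosins Myh1 and Myh4 at 0.012 and 0.027. Myh2, another fast myosin, differed by 0.46 ± 1.29, from 6.32 to 12.90 at 9-14d against 8.25 to 10.28 at 5-8d. Its 9-14d rats lay below the 5-8d rats in code D and above them in code E. Myh7, the slow myosin, was spread between 5.71 and 12.01 at 9-14d, against 11.30, 10.29, 9.76 and 9.25 at 5-8d, and its difference was -1.36 ± 1.17 (adjusted p = 0.605). The 13 slow-fibre genes had a median of -0.21, which was -1.35 in code D and 0.58 in code E. As a check of the tissue, 10 of 12 skeletal muscle fibre markers were measured, with mean levels of 13.28 to 13.59 over the 9-14d rats and 13.18 to 13.65 over the 5-8d rats (median difference -0.089). Of erythrocyte markers 2 of 6 were measured, with positive differences and no call (median 0.96), and their part in other differences was not tested.

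Whether the later step was particular to legs without loading was tested as the change in unloaded legs minus the change in loaded legs, with the rat as a block. No gene was called by limma (231 at an unadjusted p under 0.05, smallest adjusted p 1). Pmepa1, a transmembrane inhibitor of transforming growth factor beta signalling, had the smallest p. Its unloaded level averaged 8.33 ± 0.31 at 9-14d and 8.67 ± 0.36 at 5-8d (SD, n = 6 and 4), and its loaded level averaged 9.86 at 9-14d and 8.84 at 5-8d. The difference of the changes was -1.36 ± 0.30 (95% interval -1.97 to -0.74, limma adjusted p = 1). The unloaded legs overlapped, at 7.89 to 8.63 at 9-14d and 8.21 to 9.06 at 5-8d, and the loaded legs stood at 8.85 to 10.77 at 9-14d and 8.17 to 9.33 at 5-8d. Vldlr, a lipoprotein receptor, averaged 8.71 at 9-14d and 9.57 at 5-8d in unloaded legs and 8.82 and 8.89 in loaded legs, with a difference of the changes of -0.80 ± 0.19 (limma adjusted p = 1). Aagab, Nthl1 and Gstm3 followed, at -0.72, -0.35 and 0.60.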

How the data were processed

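RNA of 46 gastrocnemius samples was measured on 1-colour arrays, 1 per leg. The authors deposited 1 table of log2 values for 26208 probe sets, made with RMA per the submitters' processing notes, a method that corrects background, normalises arrays to one distribution and summarises the probes of a set. The version is not given in the sources used here. Array medians spanned 6.07 to 6.20, and precision is limited by the number of arrays. A platform table named 1 gene for 15088 probe sets, several for 323 and none for 10797.

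Probe sets above their own array's median on at least 4 of the 23 unloaded arrays were kept (9592), and each of 9009 genes was read from its brightest probe set. The test was limma 3.58.1 in R 4.3.3, with a moderated variance over the 3 windows of unloaded legs and Benjamini-Hochberg adjustment over all genes. The change in unloaded minus loaded legs used the 46 arrays and a term for each rat, with rats inferred from the numbers in the labels. P-values of the window steps rest on a spread between rats pooled over the 3 windows and moderated across genes. The 13 rats at 6h-4d therefore enter the p of the later step, although they are not compared in it. For Cyfip2 the SD was 0.12 at 6h-4d, 0.46 at 5-8d and 0.5 at 9-14d, and for Myog 1.13, 0.33 and 0.26. The tests were checked on simulated data.

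Genes were named by class, size of change and a fixed panel, and others, among them Asb12, Atox1, RT1-Ba, RT1-Bb, Csf1r, Ogn and Atf4, were named after their values were seen. The members, lists and panel were chosen with earlier results of these data known. The motif shown was picked after several motifs had been looked for in these promoters. Sequences are from RefSeq on GRCr8. Alternatives varied normalisation, filter, probe set summary, arrays in the fit, variance model, date code and the rats included.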

Additional observations from a re-analysis of the deposited data

Results flagged for a closer look

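In 190 groups (95 named genes in both later windows of unloaded legs) the highest or lowest rat was set against the others by Dixon's ratio, which chance passes in about 1 in 20 groups. It was passed in 11 groups (5.79%), so the number is near what chance gives. At 9-14d, rat 57 was high for Cyb5a (11.90, others 10.58 to 10.96), an electron carrier called higher at 9-14d. Rat 59 was low for Dclk1 (9.15, others 10.66 to 11.15) and high for Myf5 (9.93, others 8.89 to 9.27), and rat 51 was low for Runx1 (12.31, others 12.77 to 12.90).

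At 5-8d, rat 41 was low for 3 genes. These were Chrnd, a receptor subunit (8.83, others 10.76 to 10.98), Hspa5, a chaperone (11.34, others 12.17 to 12.30), and Psmb9, of the immunoproteasome (6.60, others 7.76 to 7.92). Rat 43 was low for Psma4, a proteasome subunit (9.30, others 10.60 to 10.79), and for Tubb6, a tubulin (10.55, others 11.81 to 11.98). Rat 55 was low for Runx1 (11.90, others 12.48 to 12.51) and for Sln (12.20, others 13.29 to 13.50).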

How the results depend on the processing

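The 21 calls depended on the rats and on the variance model. All 21 genes kept their direction in each of 22 alternatives, and their adjusted p in limma ranged between 7.98e-06 and 0.713. The alternatives reuse the arrays on which the genes were picked, so the kept direction is no independent support. Cyclic loess called 35 genes, with 11 that returned and 20 called only in the later step. Array quality weights called 2261 (1062 higher and 1199 lower), of which 947 were past 1.5-fold, 178 continued, 1417 returned and 666 were called only in the later step. All 46 arrays with the rat as a random block called 200, of which 160 were past 1.5-fold (19 as reported), and 20 of the 21 were shared. The 10 arrays alone and the date code as a block each called 0, also past 1.5-fold (1052 and 1261 at an unadjusted p under 0.05). Date code D alone called 1 gene, also past 1.5-fold, and code E alone called 19, of which 1 was among the 21. Without rats 35 and 37 of 6h-4d, a choice made after seeing the data, 48 were called, 40 of them past 1.5-fold, with 9 that continued, 21 that returned and 18 called only in the later step. With an earlier step of at least 2-fold, 1 gene continued, 3 returned and 69 held. Leaving out each of the 10 rats in turn gave 0 to 539 calls, 0 to 399 past 1.5-fold, 0 to 28 that continued, 0 to 285 that returned, 1293 to 1971 that held and 0 to 226 called only in the later step. The difference between legs had 0 calls as reported and 1 with array quality weights. The filter, the probe set summary and the trended variance gave between 17 and 23 calls. The cause of these shifts was not tested. No paired analysis was possible because the windows share no rats and no replicate numbers. The number of arrays limits the precision, with a median standard error of 0.16.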

Other observations

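Several groups not described above, like nearly all genes, had no call in the later step. Of 25 heat shock proteins and chaperones 11 were called higher and 3 lower in the earlier step (median 0.37), and the later median was 0.033, beside -0.01 for all genes. Of 20 tubulins and cytoskeleton genes 12 were called higher and 1 lower (median 0.60), and the later median was -0.083. Tppp3, which promotes tubulin polymerisation, was lower in every 9-14d rat than in every 5-8d rat, with a difference of -1.32 (limma adjusted p = 0.0835). The 23 fatty acid oxidation and transport genes, 10 of them called lower in the earlier step, had a later median of 0.17, and none held. The 19 calcium release and excitation genes had a later median of -0.009, the 21 autophagy and lysosome genes -0.087 and the 12 circadian clock genes -0.067. Of the 5 measured tendon cell markers 4 were called lower and 1 higher in the earlier step (median -2.41), and their later median was 0.79.

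Both legs of a rat deviated together from their group means, with a correlation across genes between 0.18 for rat 51 and 0.72 for rat 45 over the 10 rats of the later windows. Genes are not independent replicates.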
